A study of Mus musculus with 2 samples.

Results

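Mammalian DNA methylation is kept through cell division by a maintenance enzyme and its recruiters, and is laid down anew by de novo enzymes and their cofactor. The 9 genes described here were chosen by name for these roles. They are Dnmt1, its recruiters and supports Uhrf1, Uhrf2, Usp7 and Hells, the de novo group Dnmt3a, Dnmt3b and Dnmt3l, and the maternal protection factor Dppa3. All 9 were found among the 23418 rows of the deposited table, and 8 averaged 20 counts or more per library, the minimum for comparison with other genes. Uhrf2 was below it.

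The samples were 2 pools of 20 mouse embryos each, of C57BL/6 background, collected between the 4-cell and the 8-cell stage. One pool had been injected with an siRNA named siDnmt1, directed at Dnmt1 mRNA, and the other with a scrambled siRNA (here siScrambled). The labels name no genetic modification in either pool, and do not state the stage of injection or the sequence of either siRNA. Each pool gave 1 library, so there is no measure of variation between pools and no p-value is given. The intervals are 95% Clopper-Pearson intervals that cover counting error only, and not the variation from amplifying very small inputs. In bulk pools, fewer cells of a type and less RNA per cell cannot be told apart.

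In the early mouse embryo most of the genome loses methylation while imprinted regions and some retroelements keep it. Dnmt1 copies the methyl mark to the new strand after replication, and Uhrf1 binds hemimethylated DNA, ubiquitinates histone H3 and so brings Dnmt1 there. The oocyte makes its own Dnmt1 isoform from a separate first exon, and counts per gene do not separate isoforms. Dppa3, also called Stella or PGC7, is loaded into the egg, protects maternal methylation in the zygote and can keep Uhrf1 out of the nucleus of the oocyte.

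The libraries held 12236615 counts (siDnmt1) and 11675483 counts (siScrambled), of which 37.3% and 29.9% fell on Rn45s, the ribosomal RNA precursor. Both libraries had the RNA of preimplantation embryos. All 17 embryo markers had a count in each, among them Pou5f1 with 1489 (siDnmt1) and 2152 counts (siScrambled), and Cdh1 with 4727 and 3301. Most markers of other cells were at 0. For cumulus and granulosa cells these were 13 of 16 in siDnmt1 and 14 in siScrambled, including Has2, Fshr and Cyp19a1. Fibroblast markers were at 0 for 7 of 10 in both libraries, and blood markers for 7 and 6 of 10. The exceptions above the count minimum were the granulosa marker Amhr2 (45 counts in siDnmt1 and 56 in siScrambled) and 2 stromal markers. Of these, Tagln had 40 counts in siDnmt1 and 3 in siScrambled, and Postn had 6 and 38. The summed level of each of these 3 lists was between 22 and 64 counts per library.

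Dnmt1 methylates cytosine in CG pairs, so CG pairs just upstream of annotated transcription starts were counted. RefSeq sequences (GRCm38.p6) were matched by symbol for 8 of the 9 genes at 15 starts, and the 250 bases before each start were read. The processing notes name the older mm9 build, so these positions are on another build than the counts. Shown are windows that overlap no annotated exon, at 1 start each of the targeted gene and of the pair of genes with the lowest ratios that had a sequence, 5′ to 3′, with CG pairs in capitals. The Dnmt1 window lies at chr9:20959889-20960138 on the minus strand, that of Uhrf1 at chr17:56304063-56304312 on the plus strand and that of Dnmt3l at chr10:78049592-78049841 on the plus strand.
Dnmt1: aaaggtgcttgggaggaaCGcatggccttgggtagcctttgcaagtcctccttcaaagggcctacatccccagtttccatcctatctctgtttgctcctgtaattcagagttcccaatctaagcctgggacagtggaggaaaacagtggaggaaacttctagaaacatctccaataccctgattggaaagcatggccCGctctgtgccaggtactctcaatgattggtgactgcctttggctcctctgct
Uhrf1: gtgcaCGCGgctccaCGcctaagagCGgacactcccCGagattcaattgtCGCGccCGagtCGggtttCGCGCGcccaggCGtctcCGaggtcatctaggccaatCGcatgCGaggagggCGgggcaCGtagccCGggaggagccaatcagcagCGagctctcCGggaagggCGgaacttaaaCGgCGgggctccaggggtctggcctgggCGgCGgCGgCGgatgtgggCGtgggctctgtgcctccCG
Dnmt3l: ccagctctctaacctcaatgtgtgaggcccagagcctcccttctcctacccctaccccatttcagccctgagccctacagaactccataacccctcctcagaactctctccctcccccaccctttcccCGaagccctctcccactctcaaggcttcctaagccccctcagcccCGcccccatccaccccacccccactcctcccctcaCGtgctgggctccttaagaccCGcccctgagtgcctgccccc
The Uhrf1 window held 30 CG pairs, more than 94.1% of the 32851 windows of the same length in the table, whose median was 6. The Dnmt3l window held 4, with 3 and 5 at its other starts, and the other Uhrf1 start had 10. The Dnmt1 window shown held 2, whereas the windows at its other starts held 7 and 26. The starts of Usp7 (55), Dnmt3a (15 to 40), Hells (28), Uhrf2 (23) and Dnmt3b (21) were all richer in CG than the median. Methylation of these windows was not analysed here.

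The same windows were searched for 4 forms of the E2F site, TTTCCCGC, TTTGGCGC, TTTCGCGC and TTTGCCGC, on both strands. E2F proteins drive genes of DNA replication. A match was found in 3 of the 15 windows, 1 each of Dnmt1, Uhrf1 and Hells, and in 1.86% of all windows. Each of the 4 forms contains a CG pair, and the part of CG content in these shares was not tested. The matching windows of Dnmt1, Uhrf1 and Hells held 26, 30 and 28 CG pairs, against a median of 6. Windows of equal CG content were not compared, and several of the 15 windows are starts of the same gene. The Uhrf1 window printed above holds its match, and the matching Dnmt1 and Hells windows overlap annotated exons and are not printed.

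Across the 8 genes compared, 3 were lower in siDnmt1 by 2-fold or more (Uhrf1, Dnmt3l and Dppa3), 0 were higher by that much and 5 lay between. Of all 7315 genes compared, 16.7% were lower by 2-fold or more and 12.5% were higher by that much, 29.1% in either direction. Here the fold was taken from the log2 ratio of siDnmt1 to siScrambled with 5 counts added to each, which understates the change of low genes. The median log2 ratio of the 8 genes was -0.0070, against -0.025 for all genes. Its members ran from -2.61 to 0.85, with 4 above 0 and 4 below.

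**Figure D1:**
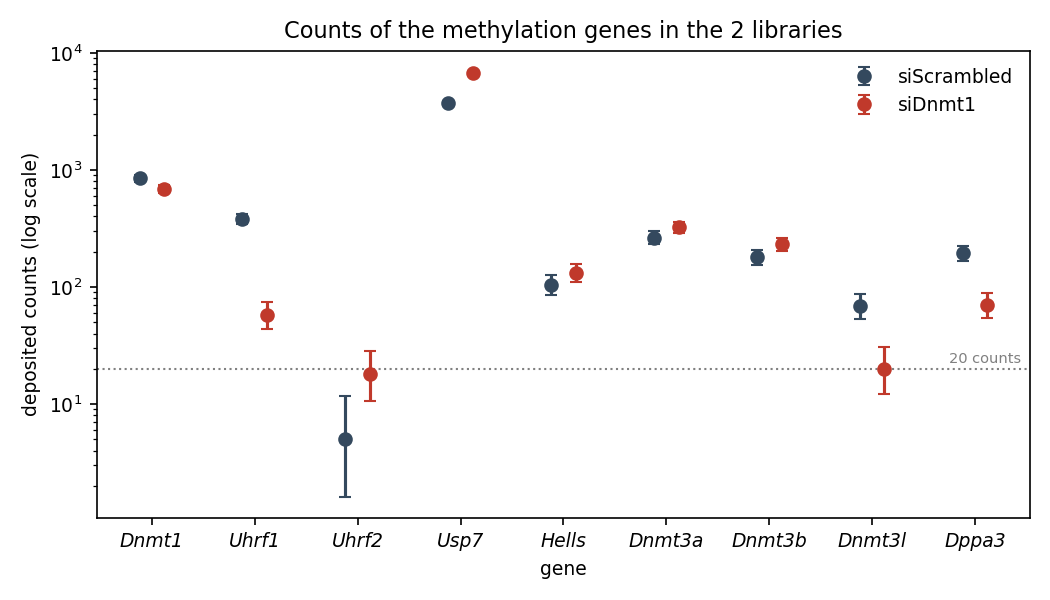
Deposited counts (log axis) of each of the 9 genes in the siScrambled and siDnmt1 libraries, 1 point per library, with bars for the 95% Poisson interval of the count. The points of Uhrf1, Dnmt3l and Dppa3 lie apart with siDnmt1 lower, Usp7 is higher in siDnmt1, and Uhrf2 lies under the dotted line at 20 counts in both libraries.

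Dnmt1, the target of the siRNA, had 687 counts in siDnmt1 and 847 in siScrambled. The siDnmt1 library was 1.23-fold lower, with a counting interval of 1.11 to 1.37. This difference was past counting error but small beside the scatter of all genes: 74.2% of the 7315 genes had a log2 ratio at least as far from 0 as that of Dnmt1 (-0.30). Genes were divided into 5 classes of nearly equal size by their longest transcript. Among the 1453 genes in the longest class, to which Dnmt1 belongs with 5870 nt, the median log2 ratio was 0.18 and 27.0% were at or below Dnmt1. After removal of the trend with the longest transcript its log2 ratio was -0.45. Over the 11 alternatives that can change a ratio it stayed below 0, between -0.48 and -0.18.

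A share taken within a library does not depend on how the 2 libraries are scaled. Of the counts on the 3 catalytically active methyltransferase genes, Dnmt1 held 65.7% in siScrambled (interval 63.0 to 68.3) and 55.3% in siDnmt1 (52.5 to 58.1). The intervals do not overlap, with Dnmt1 lower relative to Dnmt3a and Dnmt3b in siDnmt1. This share was added after the values were seen. The genes nearest to Dnmt1 in log2 ratio, among those averaging 100 counts or more, were Timd2 (9441 counts in siDnmt1 and 11625 in siScrambled), Chga (103 and 128) and Wbp11 (967 and 1192). Each had a log2 ratio of -0.30. With 2 libraries this likeness is only an equal ratio, and 376 genes lay within 0.1 of Dnmt1.

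Uhrf1 differed most of the 8. It had 58 counts in siDnmt1 and 380 in siScrambled, 6.55-fold lower (4.96 to 8.79), and its log2 ratio of -2.61 was reached or passed downward by 2.09% of all genes. With a longest transcript of 3586 nt Uhrf1 belongs to the middle length class, where the median log2 ratio was 0.01 and 2.13% of genes were at or below it. Its value hardly moved when the length trend was removed (-2.61) or the trend with GC content (-2.50). Relative to its partner, Uhrf1 held 31.0% of the summed Dnmt1 and Uhrf1 counts in siScrambled (28.4 to 33.6) and 7.79% in siDnmt1 (5.96 to 9.95). Uhrf1 was thus more reduced in siDnmt1 than Dnmt1 was, by shares whose intervals do not overlap.

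Uhrf2, a paralog of Uhrf1 that binds modified cytosine but does not replace Uhrf1 in maintenance, was scarce. It had 18 counts in siDnmt1 and 5 in siScrambled, a ratio of 3.60 with an interval of 1.29 to 12.4. The paralogs lay in opposite directions, though Uhrf2 was below the count minimum for comparison. Uhrf1 made up 98.7% of their summed counts in siScrambled (97.0 to 99.6) and 76.3% in siDnmt1 (65.2 to 85.3). Uhrf1 was the more abundant of the pair in both libraries.

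**Figure D2:**
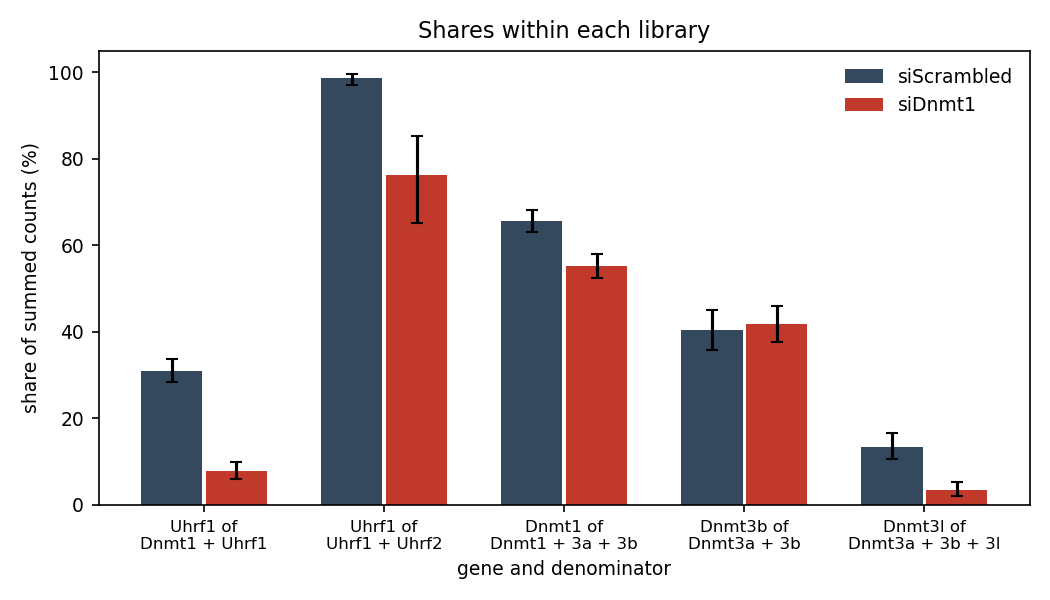
Share (%) of a gene in the summed counts named under each pair of bars, in the siScrambled and siDnmt1 libraries, with 95% Clopper-Pearson intervals of counting error as bars. Uhrf1 has 31.0% (siScrambled) and 7.79% (siDnmt1) of Dnmt1 plus Uhrf1 counts, while Dnmt3b holds 40.4% and 41.8% of Dnmt3a plus Dnmt3b counts.

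Usp7 encodes a deubiquitinase that binds Dnmt1 and Uhrf1 and protects them from degradation, and it also acts on many other proteins. It had 6690 counts in siDnmt1 and 3716 in siScrambled, 1.80-fold higher (1.73 to 1.87). This was the largest upward ratio among the 8 genes compared, and 16.2% of all genes had a log2 ratio at or above its 0.85. Usp7 carried most of the counts of the set, 64.5% (63.3 to 65.8) in siScrambled and 81.3% (80.4 to 82.1) in siDnmt1. The summed counts of all 9 genes were therefore higher in siDnmt1 (8230 against 5758), while the sum of the other 8 was lower (1540 against 2042).

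Hells encodes a chromatin remodeller, also called LSH, that opens nucleosomal DNA to methylation. It had 132 counts in siDnmt1 and 104 in siScrambled, a ratio of 1.27. The interval of 0.974 to 1.66 includes equality, so no difference was detectable at this depth. Of all genes, 34.5% had a log2 ratio at or above that of Hells (0.33).

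The de novo enzymes Dnmt3a and Dnmt3b, which methylate DNA without a template strand, were slightly higher in siDnmt1. Dnmt3a had 323 counts in siDnmt1 and 264 in siScrambled, a ratio of 1.22 (1.04 to 1.45). Dnmt3b had 232 and 179, a ratio of 1.30 (1.06 to 1.58). Both intervals lie just above equality, and both log2 ratios (0.29 and 0.37) were inside the middle 50% of all genes, which ran from -0.67 to 0.57. With the length trend removed the log2 ratio of Dnmt3a was 0.08, and in its length class 44.7% of genes were at or above it. For Dnmt3b these values were 0.27 and 38.2%. The balance between them was close in the libraries: Dnmt3b held 40.4% of their summed counts in siScrambled (35.8 to 45.1) and 41.8% in siDnmt1 (37.7 to 46.0), with overlapping intervals.

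Dnmt3l has no catalytic activity of its own and stimulates Dnmt3a and Dnmt3b, above all in germ cells. It had 20 counts in siDnmt1 and 69 in siScrambled, 3.45-fold lower (2.07 to 5.99). Against the enzymes it assists, Dnmt3l held 13.5% of the Dnmt3a, Dnmt3b and Dnmt3l counts in siScrambled (10.6 to 16.7) and 3.48% in siDnmt1 (2.14 to 5.32). The cofactor and its enzymes thus lay on opposite sides of equality, in a share added after the values were seen. Such a share is not free of transcript length. The median log2 ratio was -0.53 in the length class of Dnmt3l, 0.18 in that of Dnmt3a and 0.16 in that of Dnmt3b. With the trend on the longest transcript removed, their log2 ratios were -1.19, 0.08 and 0.27.

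Dppa3 had 70 counts in siDnmt1 and 194 in siScrambled, 2.77-fold lower (2.10 to 3.70). Its share in the sum of Dppa3 and Uhrf1, also added later, was 33.8% in siScrambled (29.9 to 37.8) and 54.7% in siDnmt1 (45.7 to 63.5). Dppa3 was therefore less reduced than Uhrf1, by more than counting error.

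**Figure D3:**
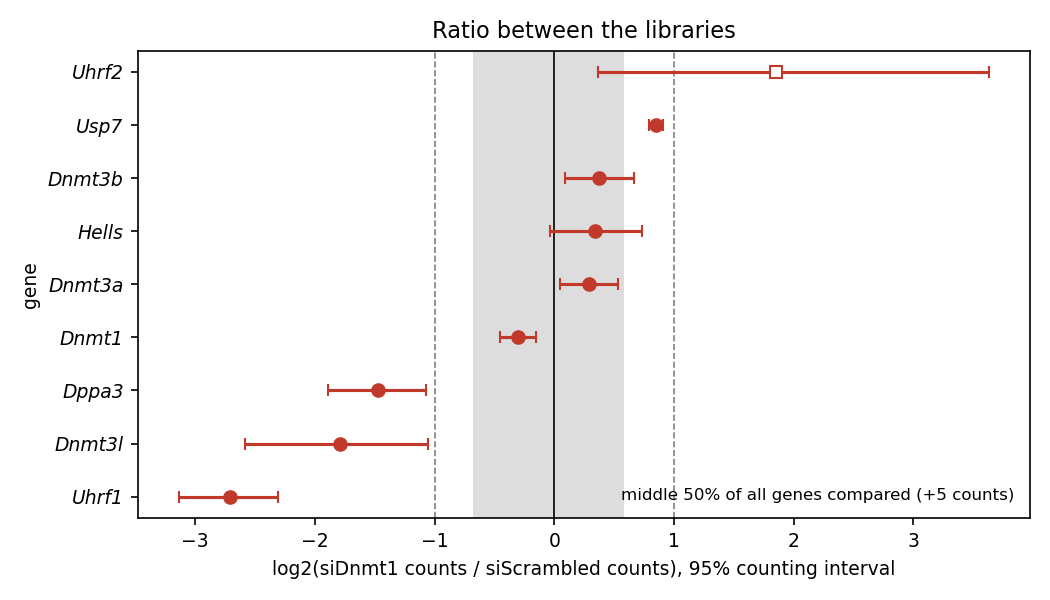
Log2 of the plain ratio of siDnmt1 to siScrambled counts for the 9 genes, with 95% counting intervals. The shaded band is the middle 50% of all genes compared (-0.67 to 0.57, with 5 counts added), dashed lines mark 2-fold, and the open square is Uhrf2, below the count minimum. Uhrf1, Dnmt3l and Dppa3 lie below the lower dashed line with their whole intervals, and Dnmt1, Dnmt3a, Dnmt3b and Hells have their points inside the band.

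Transcript length moved with the ratio between these libraries. In the shortest class (346 to 2330 nt) the median log2 ratio was -0.53 and 32.1% of 1456 genes were at least 2-fold lower in siDnmt1. In the longest class (5779 nt and above) the median was 0.18 and 8.19% were. Dnmt3l (1822 nt) and Dppa3 (833 nt) belong to the shortest class, in which 15.7% and 18.9% of genes had a log2 ratio at or below theirs. Removing the trend with the longest transcript left Dnmt3l at -1.19 and brought Dppa3 from -1.41 to -0.19, inside 2-fold. Removing the trend with the median transcript length of each gene left Dppa3 at -1.27. The part of length in these values was not tested further.

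**Figure D4:**
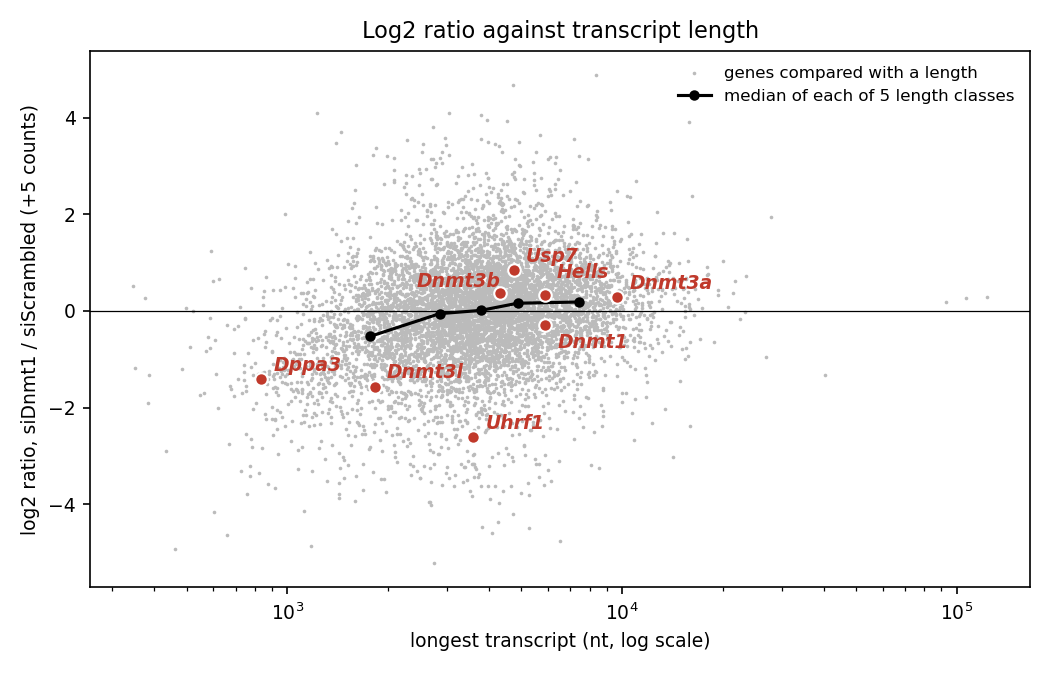
Log2 ratio of siDnmt1 to siScrambled (5 counts added) against the length of the longest transcript (nt, log axis) for the genes compared that have a length, with the 8 methylation genes in red. The black line joins the medians of the 5 length classes, from -0.53 in the shortest to 0.18 in the longest. Dppa3 and Dnmt3l lie at the short end, and Uhrf1 lies well below the line at middle length.

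Levels of different genes were compared as counts per kilobase of the longest transcript. In siScrambled the order was Usp7 (783 counts per kilobase), Dppa3 (233), Dnmt1 (144), Uhrf1 (106), Dnmt3b (41.4), Dnmt3l (37.9), Dnmt3a (27.3), Hells (17.7) and Uhrf2 (1.41). Only the neighbours Dnmt3b and Dnmt3l did not differ beyond counting error. Dnmt1 stood above 86.9% of the 12203 genes with a count and a length, and Uhrf1 above 83.9%.

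In siDnmt1 the order of levels per kilobase was Usp7 (1409.9), Dnmt1 (117), Dppa3 (84.0), Dnmt3b (53.7), Dnmt3a (33.4), Hells (22.5), Uhrf1 (16.2), Dnmt3l (11.0) and Uhrf2 (5.09). Uhrf1 stood at place 7 instead of 4, and was above 57.3% of the genes with a count and a length, while Dnmt1 stood above 85.0%. Uhrf1 and Dnmt3l did not differ from each other beyond counting error. The order depends on the transcript chosen. The median annotated transcript is short for genes with many fragments in the annotation. Per kilobase of it, Dnmt3a stood at place 2 in both libraries (394 and 322 counts per kilobase in siDnmt1 and siScrambled). By that length Uhrf1 stood at place 7 in siDnmt1 and 6 in siScrambled, and Dnmt1 at place 4 in both.

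Partners of maintenance methylation at the replication fork and regulators of Dnmt1 were 18 genes above the count minimum of 21 listed, all found in the table. Of these, 4 were past 2-fold downward in siDnmt1 and 1 upward, beside 16.7% and 12.5% of all genes. The median log2 ratio was -0.05. Pcna, the sliding clamp that holds Dnmt1 at the fork, had 195 counts in siDnmt1 and 516 in siScrambled (2.65-fold lower, 2.24 to 3.14). Cdk1, the mitotic cyclin-dependent kinase, had 2511 and 6319 (2.52-fold lower, 2.40 to 2.64). The other lower genes were Fen1, a flap endonuclease (14 and 39), and Kdm1a, a lysine demethylase that acts on histones and Dnmt1 (282 and 642). Ube2l3, a ubiquitin-conjugating enzyme, had 68 counts in siDnmt1 and 20 in siScrambled (3.40-fold higher, 2.04 to 5.91), and Csnk2a1, a casein kinase subunit, had 486 and 263.

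Of 13 measured enzymes and readers of the histone marks that guide de novo methylation, 1 was past 2-fold upward, 1 downward and 11 lay between. Over all genes the shares were 12.5% upward and 16.7% downward. The median of the list was -0.09. Kdm5c, a demethylase of H3K4, had 576 counts in siDnmt1 and 238 in siScrambled (2.42-fold higher, 2.08 to 2.83), and Suv39h1, an H3K9 methyltransferase, had 26 and 60 (2.31-fold lower, 1.43 to 3.81). Kdm1b, the H3K4 demethylase that oocytes need to methylate imprinted regions, had 146 and 96. Whsc1l1, an H3K36 methyltransferase, had 233 and 383.

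Of 8 measured factors listed for the protection of imprints and silencing at methylated sites, 0 were past 2-fold in either direction. Over all genes this share was 29.1%. All 8 averaged 100 counts or more, and of the 4233 genes at that level 395 were at least 2-fold higher and 482 lower. The median of the list was -0.17. The extremes were Arid4a (242 counts in siDnmt1 and 376 in siScrambled) and Arid4b (475 and 596) at the lower end. At the upper end were Smchd1 (854 and 719), which acts in X inactivation, and Rlim (801 and 670), a ubiquitin ligase that activates Xist.

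The one-carbon cycle makes S-adenosylmethionine, the methyl donor of all these enzymes. Of 15 measured genes, 3 were past 2-fold upward and 3 downward, beside 12.5% and 16.7% of all genes. The median was 0.22. Shmt2, the mitochondrial serine hydroxymethyltransferase, had 81 counts in siDnmt1 and 16 in siScrambled (5.06-fold higher, 2.94 to 9.27). Bhmt, which remethylates homocysteine with betaine, had 933 and 306 (3.05-fold higher, 2.68 to 3.48), and Ahcy, which clears S-adenosylhomocysteine, had 59 and 26. Lower in siDnmt1 were Tyms, thymidylate synthase (57 and 163, 2.86-fold), Mthfd2, a mitochondrial folate enzyme (10 and 31), and Mat2b, a regulatory subunit of the synthetase (134 and 322). Mat2a, the catalytic subunit of that synthetase, was nearly equal at 14182 and 14113. Ahcy, Mat2b, Mat2a, Fen1 and Kdm1a were named after their values were seen. So were Pou5f1, Cdh1, Has2, Fshr, Cyp19a1, Amhr2, Tagln, Postn, Gm13109, Tdpoz3 and Nlrp5.

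Dppa3 and the oocyte form of Dnmt1 are supplied by the egg, so stage markers are given beside them. Of 9 measured transcripts stored in the oocyte, 2 were past 2-fold downward and 0 upward, beside 16.7% and 12.5% of all genes. The median was 0.14. The sign of that median turned with the filter on low counts. Without that filter the median was -0.22, over the 17 listed genes with any count. At a mean of 100 counts or more it was -0.92, from Nlrp5 and Zbed3 alone. Zbed3 (56 counts in siDnmt1 and 157 in siScrambled) and Zp3 (13 and 42) were lower, and Zp1 (90 and 43) and Tle6 (67 and 32) were higher. Of 6 measured genes of the 2-cell wave, 4 were past 2-fold downward and 0 upward, beside the same shares of all genes. The median was -1.55. It was -0.50 with the trend on the longest transcript removed and -1.29 with that on median transcript length. Both values leave out Gm13109, which has no length. At a mean of 100 counts or more the median was -0.55, from Zfp352, Tdpoz3, Tdpoz4 and Sp110 alone. The 4 past 2-fold downward were Zfp352 (112 and 802), Usp17lb (18 and 89), Gm13109 (34 and 116) and Tdpoz3 (90 and 258). Sp110 (60968 and 32953) and Tdpoz4 (335 and 258) were higher. Close copies of several of these genes exist, which makes reads hard to assign and their values uncertain. Their transcripts were short, with a median of 1558 nt, and in the shortest length class 32.1% of genes were lower by 2-fold or more.

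Of 16 measured preimplantation embryo markers, 6 were past 2-fold downward and 0 upward, beside 16.7% and 12.5% of all genes, and the median was -0.42. It was -0.18 with the trend on the longest transcript removed and -0.28 with that on median transcript length. With the GC trend removed it was -0.21, and at a mean of 100 counts or more -0.22. The lowest ratios were those of Dppa5a (8 counts in siDnmt1 and 47 in siScrambled) and Dppa4 (991 and 3469, 3.50-fold lower), and the highest those of Nanog (40 and 23) and Klf17 (918 and 589). The part of developmental stage in the values of Uhrf1, Dnmt3l and Dppa3 was not tested. With 1 pool per siRNA, a difference in stage between the pools and an effect of the siRNA cannot be told apart.

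**Figure D5:**
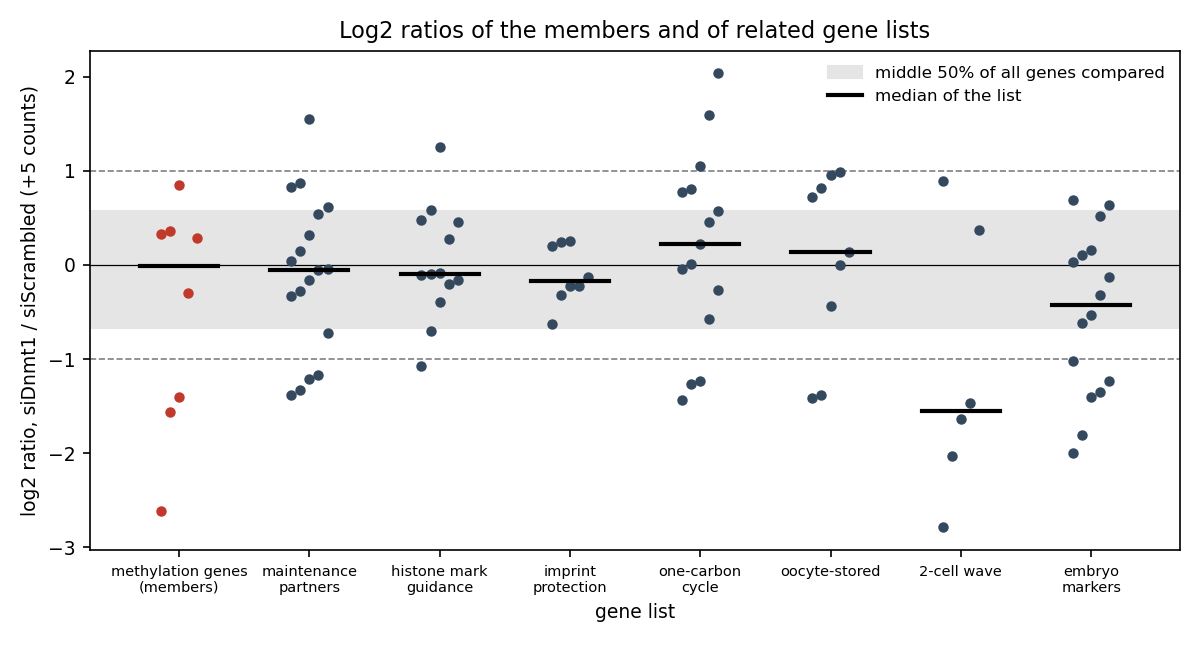
Log2 ratio of siDnmt1 to siScrambled (5 counts added) for the 8 methylation genes above the count minimum (red) and for the genes of 7 related lists (blue), 1 point per gene, with a bar at each median. The shaded band is the middle 50% of all genes compared and dashed lines mark 2-fold. Medians of the methylation genes and the pathway lists lie inside the band, and that of the 2-cell wave lies at -1.55.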

How the data were processed

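Per the labels, bead-captured mRNA was copied and amplified by 20 cycles of PCR (pico-profiling), and sequenced in pairs. No molecular identifiers are described. The submitters' processing notes name Trim Galore, HISAT2, HTSeq, DESeq2 and mm9. For versions, annotation and strand setting the sources used here give nothing. The deposited counts are described as DESeq2-normalised by the authors. The values were whole. Of the whole numbers from 1 to 59, 0 were skipped, against 3 in copies scaled by 1.05. The most piled-up low value was 1.23 (siDnmt1) and 1.29 times (siScrambled) the mean of its neighbours, against 2.03 and 2.06 in copies scaled by 0.95, which skipped 0. They were treated as counts, and a scaling factor very close to 1 cannot be told from none. Recomputed DESeq2 size factors were 1 and 1, as normalised values would also give.

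Of 23418 rows, 27 had names turned into dates and were not named. Log2 ratios used a pseudocount of 5, for genes averaging 20 counts or more. With 1 library per group there were no residual degrees of freedom, so edgeR's quasi-likelihood test could not be fitted. Intervals at 95% are exact binomial or Poisson. Lengths and GC content came from GENCODE M21 (99.4% of the genes compared); lowess trends had a span of 0.3. The ratios and intervals were run on simulated Poisson counts, the model that the intervals assume. That run held no variation from amplification or between pools, so it cannot show how well the intervals cover such variation. The members, lists and rules were chosen with earlier results of these data known. Named genes are the members, the 2 highest and 2 lowest of each list, and the 3 nearest to Dnmt1. A few others, identified in the text, were named after their values were seen. R 4.3.3 with DESeq2 1.42.0 and edgeR 4.0.16 gave the scaling factors; Python 3.11.15 with statsmodels 0.14.6 and scipy 1.17.1 gave the rest.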

Additional observations from a re-analysis of the deposited data

How the results depend on the processing

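The 8 genes compared were recomputed under 14 alternatives: pseudocounts of 1 and 20, the count filter dropped or raised to a mean of 100 counts, 6 scalings, and lowess trends removed on length (longest or median transcript), mean count and GC content. The 2 filters and the DESeq2 size factors (1 and 1) cannot change a gene's ratio. Under the other 11 alternatives all 88 log2 ratios kept their sign, 86 kept their side of 2-fold and 79 moved by less than counting error. Dnmt3l has no value at a mean of at least 100 counts. With the length trend removed, Dnmt1 was -0.45, Usp7 0.72 and Dppa3 -0.19. With the trend on median transcript length removed, Dnmt1 was -0.48 and Usp7 1.01, so that 1 gene was at least 2-fold higher. Without the filter 1 gene, Uhrf2, was at least 2-fold higher. Usp7 was 0.78 with equal totals, 0.94 with equal totals without Rn45s, 0.78 with the GC trend removed and 0.70 with the mean count trend removed. Its counting interval is narrow. Over all genes, 1682 were at least 2-fold higher and 2122 lower without the filter, and 395 and 482 at a mean of at least 100 counts, against 911 and 1221. The median of the 2-cell wave was -0.50 with the trend on the longest transcript removed and -1.29 with that on median transcript length. At a mean of 100 counts or more it was -0.55, from Zfp352, Tdpoz3, Tdpoz4 and Sp110 alone. By the same filter the median of the oocyte-stored list was -0.92, from Nlrp5 and Zbed3 alone. Leaving out a replicate could not be done. No paired analysis was possible because each group has 1 library. Depth limits Uhrf2 and Dnmt3l most, with intervals of 1.29 to 12.4 and 2.07 to 5.99.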
